A study of Homo sapiens with 6 samples.

Results

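The silencing of ZFX was compared between 2 human leukemia lines, to ask which transcripts differed from control in one line and not, or not in the same way, in the other. For each probe set the value was a difference of differences on the log2(signal + 17) scale: the silenced minus control difference in K562 cells minus the same difference in Jurkat cells, taken separately for hairpin 381 and hairpin 1012. A positive value means that the silenced array stood higher against its control in K562 than in Jurkat cells, and a negative value the reverse. Probe sets entered where the control signal was at least 100 in both lines, so that either line could show a lower value. This left 18566 of 54613 probe sets (34.0%), of which 15691 had 1 gene symbol and represented 8749 of 19775 genes on the array. A gene was represented by its eligible probe set with the highest mean over the 6 arrays.

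Jurkat cells derive from a T cell acute lymphoblastic leukemia and K562 cells from a chronic myeloid leukemia that carries the BCR-ABL1 fusion and keeps features of the erythroid lineage. Each line had 1 control array, 1 array of cells with the ZFX hairpin named 381 and 1 array of cells with the ZFX hairpin named 1012, so 6 arrays formed 4 groups. Hairpins were delivered by lentivirus, and infected cells were sorted by their fluorescence. The protocol names a control hairpin vector, shNC, while the control arrays are labelled as normal cells, so it is not settled whether the controls were infected and sorted. If they were not, an effect of infection cannot be told apart from that of silencing. RNA from 3 replicates was pooled for each array, and both hairpins of a line were set against the same control array. A like value with both hairpins is therefore no replication, and a chance deviation of 1 control array enters the values of both hairpins.

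ZFX is an X-linked zinc finger transcription factor that binds near the start sites of many expressed genes and is needed for the self-renewal of embryonic and blood stem cells. Gene silencing by a short hairpin RNA works through the cell's own RNA interference machinery, and each hairpin can also lower unintended transcripts. The lines use different signalling to grow: K562 cells depend on the BCR-ABL1 kinase, which keeps STAT5 active, and Jurkat cells carry the genes of the T cell receptor pathway.

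The labelled lines were checked against lineage markers. The summed signal of 19 measured T cell markers lay between 128804 and 138695 on the Jurkat arrays and between 5828 and 6657 on the K562 arrays, where 4 to 6 of the 19 were under the pseudocount of 17. For 14 measured erythroid markers the sum lay between 74056 and 100458 in K562 and between 31085 and 42751 in Jurkat cells, where TFRC and TAL1 were bright. Only 5 of 22 listed T cell and 5 of 22 erythroid markers had a control signal of at least 100 in both lines, so most lineage genes lie outside the comparison. All arrays had a 2% trimmed mean signal of about 500. The 28S ribosomal RNA control probe set differed from control by 0.87 and 0.83 on the silenced Jurkat arrays and by -0.04 and 0.07 on the silenced K562 arrays, in the order 381, 1012.

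All 4 probe sets of ZFX read below control on all 4 silenced arrays. The gene's brightest probe set read 498, 337 and 119 in Jurkat and 719, 236 and 289 in K562 cells, each in the order control, hairpin 381, hairpin 1012, which is kept for all signals that follow. With this probe set the silenced signals lay below the control of their line in every case, and which hairpin read lower differed between the lines. The mean difference from control was -1.23 in Jurkat and -1.40 in K562 cells, with limma adjusted p values of 0.999 and 0.995. Their difference was -0.17 ± 0.71 (SE), with values of -0.997 and 0.66 for hairpins 381 and 1012 that had opposite signs. This probe set and the third below are of a kind that can bind other transcripts. A second eligible ZFX probe set, not of that kind, read 608, 214 and 183 in Jurkat and 403, 163 and 130 in K562 cells. With it hairpin 1012 read lower than 381 in both lines. Its mean difference from control was -1.54 in Jurkat and -1.37 in K562 cells. Its differences between the lines were 0.21 and 0.13, and those of the third -1.07 and -0.62. Without the array of Jurkat cells with hairpin 381 the mean of the brightest probe set turned to 0.52, so these data do not settle in which line ZFX was lowered further.

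Across the 8749 genes most differences between the lines were small. The arrays were scaled to a common mean, which holds the centre of the differences near 0, so the median and the share above 0 serve only as a reference for the lists. The median was -0.0051, the quartiles were -0.19 and 0.20, and 49.4% of genes were above 0. The SD over genes was 0.38 with hairpin 381, 0.44 with hairpin 1012 and 0.35 for their mean. The values of the 2 hairpins differed from each other by a median of 0.235 in size, more than the median size of their mean, 0.198. The lower of a probe set's control signals was 100.001 nearest the inside of the threshold and 99.97 nearest the outside. The 100 probe sets nearest inside had a median of -0.08 (SD 0.56), and the 100 nearest outside a median of -0.02 (SD 0.53).

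No probe set passed a test of the difference between the lines. With limma, 0 of 18563 eligible probe sets tested (0%) had an interaction p below 0.05 after Benjamini-Hochberg adjustment over all 27306 probe sets tested, and the smallest adjusted p was 0.9997. Unadjusted, 282 (1.52%) had a p below 0.05. Within each line 0 passed as well, with a smallest adjusted p of 0.884 in K562 cells. Of the same 18563 probe sets 550 had an unadjusted p below 0.05 in Jurkat cells and 752 in K562 cells. Each of these shares, like the 1.52%, is smaller than the 0.05 that such a threshold lets through where nothing differs. The fit had 2 residual degrees of freedom, all from differences between the hairpins, and no control group was replicated. A p that misses the threshold here does not show that the lines responded alike. The genes below were therefore chosen by size with both hairpins, and their values are a description.

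A difference of at least 1 on the log2 scale, or 2-fold, with both hairpins was reached in the K562-higher direction by 62 probe sets (0.334%) and, with each gene read by its brightest eligible probe set, by 24 genes (0.274%). In the Jurkat-higher direction 60 probe sets (0.323%) and 21 genes (0.24%) reached it. Both counts depend on the eligibility threshold and the pseudocount. With a control signal of at least 50 in both lines 150 and 172 probe sets reached the size, and with 200 only 20 and 25. With a pseudocount 4 times larger the counts were 28 and 22. Set against control within a line, a 2-fold difference on both silenced arrays was seen in Jurkat cells upwards for 4 genes (0.0457%) and downwards for 10 (0.114%). In K562 cells it was seen upwards for 7 (0.08%) and downwards for 27 (0.309%). Eligibility was judged on the same control signal that is subtracted, and a control that read high by chance passes it more easily. This favours lower values on the silenced arrays, and its part in the excess of downward genes was not tested.

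**Figure D1:**
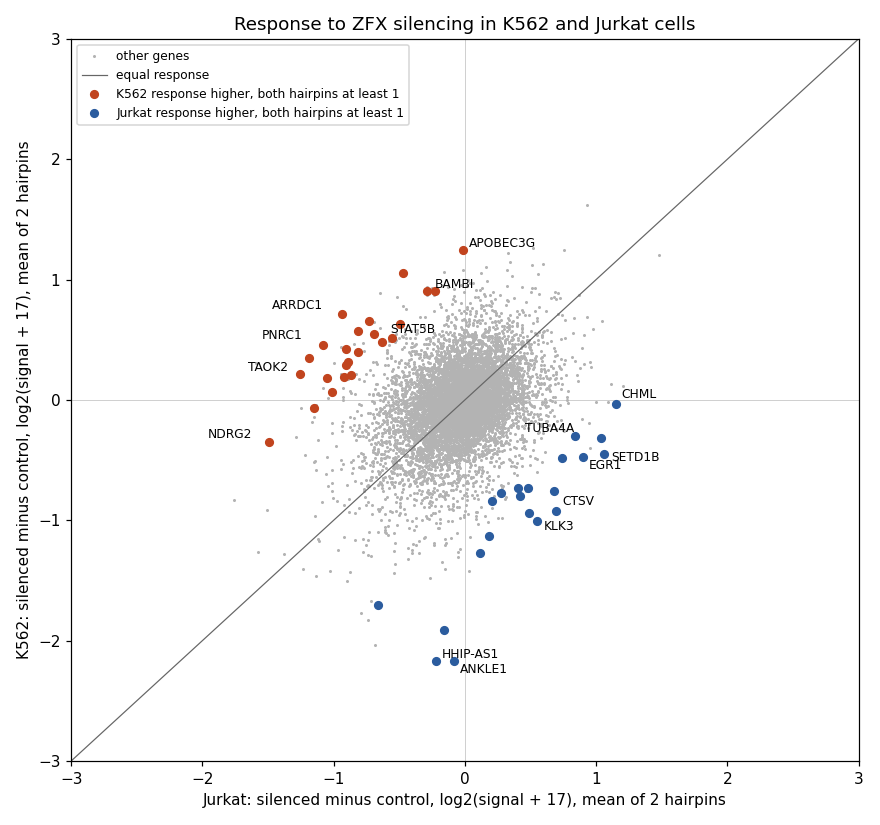
Silenced minus control difference of each of 8749 genes in Jurkat cells (x axis) and in K562 cells (y axis), as the mean over hairpins 381 and 1012 on the log2(signal + 17) scale. Red points are the 24 genes with a K562 value higher by at least 1 with both hairpins, blue points the 21 genes with a Jurkat value higher by at least 1, grey points all others, and the diagonal marks an equal difference in both lines. Most red points lie left of and above the origin and most blue points right of and below it.

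The signs of the differences from control were then counted. A rule that asks for a large difference between the lines favours genes with opposite signs, so these counts describe the chosen genes and are not a result about them. Of the 24 K562-higher genes 18 lay above control with both hairpins in K562 and below it with both in Jurkat cells, and of the 21 Jurkat-higher genes 15 had the reverse signs with both hairpins. Over all 8749 eligible genes these signs were seen in 621 (7.10%) and 573 (6.55%). Only ARRDC1 reached 1.5-fold on all 4 silenced arrays and in opposite directions in the lines. It passed narrowly, at 0.588 on the log2 scale in K562 cells with hairpin 1012. NUDT17 missed as narrowly, at 0.584 in K562 cells with hairpin 381. By the sizes of the mean differences, 9 of the 24 genes differed from control at least 3 times as far in Jurkat as in K562 cells, 3 the other way, and 11 were mixed. For the 21 genes these counts were 2, 6 and 13. The gap between the lines seen in the controls became larger with both hairpins for 15 of the 24 and smaller for 9, and for 10 of them it changed sign. For the 21 genes it became smaller with both hairpins for 11 and larger for 8, and it changed sign for 8. Since the control arrays enter both the gap and the differences, these counts are not independent of the choice of the genes.

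Among the K562-higher genes, ARRDC1 encodes an arrestin-domain adaptor that recruits ubiquitin ligases and takes part in the budding of vesicles from the plasma membrane. Its signals were 328, 192 and 139 in Jurkat and 106, 204 and 168 in K562 cells. Both silenced arrays lay below control in Jurkat and above it in K562 cells, and the higher control level of Jurkat cells was gone with either hairpin. The difference between the lines was 1.65 ± 0.47 (SE), a fold of 3.14, with an unadjusted limma interaction p of 0.00773 and an adjusted p of 0.9997. Control signal in Jurkat cells was 3.10 times that in K562 cells, and with hairpins 381 and 1012 it was 0.943 and 0.830 times.

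AP1B1, a subunit of the adaptor complex that sorts cargo between the Golgi apparatus and endosomes, read 309, 277 and 169.9 in Jurkat and 129, 279 and 294 in K562 cells. The silenced K562 arrays both lay well above their control, while in Jurkat cells hairpin 381 stood close to control and 1012 well below it, so the differences were 1.17 and 1.90 with hairpins 381 and 1012. TTC7B, a scaffold of the complex that makes phosphatidylinositol 4-phosphate at the plasma membrane, read 505, 266 and 262 in Jurkat and 893, 1057 and 1177 in K562 cells. In Jurkat cells both silenced arrays were near one another and below control, and in K562 cells both lay moderately above it. The TTC7B difference was 1.21 ± 0.38 (SE).

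PNRC1, a coactivator of nuclear receptors, read 2302, 892 and 1306 in Jurkat and 168, 206 and 272 in K562 cells. It was bright in control Jurkat cells and lower with both hairpins, and the K562 values, all far dimmer, were above control. The Jurkat excess over K562 cells was 13.7-fold in the controls and 4.34-fold and 4.81-fold with hairpins 381 and 1012. TAOK2, a kinase of stress-activated MAP kinase signalling, read 202, 76.2 and 82.2 in Jurkat and 116, 158 and 148 in K562 cells. Both silenced Jurkat arrays were under the eligibility level of 100, and the K562 arrays stood only slightly above control. NDRG2, a gene often low in tumours, read 376, 108 and 138 in Jurkat and 719, 543 and 576 in K562 cells. It was below control on all 4 silenced arrays and further below in Jurkat cells, at -1.65 and -1.34 against -0.39 and -0.31 in K562 cells.

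BAMBI, a decoy receptor that dampens TGF-beta signalling, had the reverse share: its signals were 167, 132 and 135 in Jurkat and 1996, 3340.1 and 4216 in K562 cells. The K562 level, already the higher one, was further above control with both hairpins, and the Jurkat values were dim and slightly below it. The K562 excess was 11.97-fold between the controls and 25.2-fold and 31.2-fold between the silenced arrays. STAT5B, a transcription factor activated by cytokine receptors and by BCR-ABL1, read 1131, 632 and 824 in Jurkat and 1290.2, 1565 and 2086 in K562 cells. With this probe set the controls of the lines were alike, and the silenced arrays separated, with both Jurkat values below and both K562 values above control. The difference was 1.12 ± 0.42 (SE), with an unadjusted p of 0.0267. The differences between the lines of its other 3 eligible probe sets were positive too, between 0.37 and 0.46 with hairpin 381 and between 1.32 and 1.88 with hairpin 1012. In K562 cells with hairpin 381, however, these 3 read between -0.13 and 0.09 against control. Their control signals in K562 cells were 1.40 to 1.79 times those in Jurkat cells, against 1.14 times with the brightest probe set.

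APOBEC3G, a cytidine deaminase that restricts retroviruses and belongs to a family of close paralogs, differed from control mainly in K562 cells. Its signals were 142, 139.9 and 141 in Jurkat and 294, 721 and 716 in K562 cells. The 3 Jurkat arrays could hardly be told apart, and both silenced K562 arrays stood well above their control. The difference was 1.26 ± 0.40 (SE), with an unadjusted p of 0.0129, and the K562 value alone was 2.37-fold control. MBNL2, a regulator of alternative splicing, read 2549.7, 1133 and 1618 in Jurkat and 1697, 1824 and 2865 in K562 cells. Both silenced Jurkat arrays were below control, and in K562 cells hairpin 381 stood close to control with 1012 above it. Its second eligible probe set gave 0.60 and 0.19, of the same sign and smaller.

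TST, BTD and NUDT17 are the remaining named genes of this direction. TST, a mitochondrial enzyme of sulfur metabolism, read 752, 488 and 361 in Jurkat and 1305, 1847 and 1603 in K562 cells. BTD, the enzyme that recycles biotin, read 137, 85.1 and 57.8 in Jurkat and 137, 223 and 202 in K562 cells. NUDT17, a member of the Nudix hydrolase family, read 339, 184 and 213 in Jurkat and 177, 273 and 305 in K562 cells. All 3 lay below control with both hairpins in Jurkat and above it with both in K562 cells, and BTD started from nearly the same signal in the lines. Their differences were 1.21 ± 0.41, 1.39 ± 0.50 and 1.39 ± 0.42 (SE). A second BTD probe set gave 0.32 and 0.81. Over the 12 named genes the folds lay between 2.21 and 3.14 and the unadjusted p values between 0.00773 and 0.0236.

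**Figure D2:**
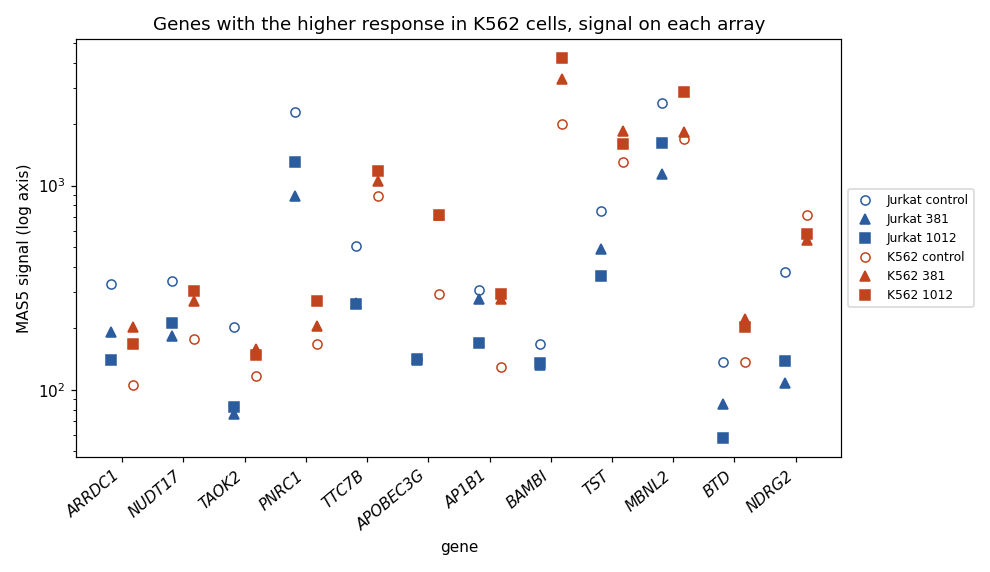
Deposited signal on each array (log axis) of the 12 K562-higher genes with the smallest interaction p, with Jurkat arrays in blue and K562 arrays in red, open circles for controls, triangles for hairpin 381 and squares for hairpin 1012. In 11 of the 12 genes both silenced arrays lie below control in Jurkat and above it in K562 cells, and NDRG2 lies below control in both.

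The other 12 K562-higher genes had mean differences between 1.07 and 1.47. They include STAT5B, described above, MTCP1, a T cell leukemia gene on the X chromosome, at 1.02 and 1.24 with hairpins 381 and 1012, and SLX4, a scaffold of DNA repair nucleases, at 1.09 and 1.17. SLX4 signals were 221, 201 and 173 in Jurkat and 138, 285 and 261 in K562 cells, close to control in Jurkat and above it with both hairpins in K562 cells. VANGL2, a planar polarity protein, and SLC27A4, a fatty acid transporter, stood near control in K562 cells and below it in Jurkat cells, with differences between the lines of 1.02 and 1.13 and of 1.07 and 1.08. DUSP16, a phosphatase of MAP kinases, gave 1.22 and 1.27, but its second eligible probe set -0.39 and 0.63. The others were UBXN10-AS1, RARA-AS1, the cadherin gene CDH24, TCEAL1, SNPH and RAB11FIP4, a Rab11 effector. For SNPH and RAB11FIP4 the hairpins lay on opposite sides of control in K562 cells, at 0.86 and -0.43 for SNPH and -0.20 and 0.61 for RAB11FIP4. Of all 24 genes 7 had a signal under 100 on at least 1 array.

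In the Jurkat-higher direction, CHML had the smallest interaction p of all eligible probe sets. It encodes an escort protein that presents Rab GTPases for prenylation. Its signals were 1999, 4417 and 4482 in Jurkat and 11844, 11319 and 11869.7 in K562 cells. Both silenced Jurkat arrays stood far above their control and close to one another, while the 3 K562 arrays, all brighter, hardly differed. The difference was -1.18 ± 0.23 (SE), with -1.20 and -1.15 for hairpins 381 and 1012 and an unadjusted p of 0.000855 (adjusted p = 0.9997). The second eligible CHML probe set gave -1.11 and -0.96. The K562 excess over Jurkat cells was 5.92-fold in the controls and 2.56-fold and 2.65-fold with the hairpins. In the RefSeq table CHML overlaps OPN3 and shares its start.

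SETD1B, a histone H3 lysine methyltransferase of active promoters, read 1451, 2580.2 and 3589 in Jurkat and 3910.2, 2919 and 2815 in K562 cells. Both silenced arrays lay above control in Jurkat and below it in K562 cells, and the control excess of K562 cells was gone or reversed, at 2.70-fold in the controls and 1.13-fold and 0.784-fold with hairpins 381 and 1012. The difference was -1.51 ± 0.35 (SE), with an unadjusted p of 0.00245. UBE2C, the ubiquitin-conjugating enzyme of the anaphase-promoting complex, read 4513, 5527 and 5403 in Jurkat and 176, 93.7 and 97.2 in K562 cells. Its 2 silenced K562 arrays were near one another and below a dim control, and the Jurkat arrays were bright and slightly above theirs. EGR1, an immediate early transcription factor, read 282, 415 and 704 in Jurkat and 3893, 2442 and 3193 in K562 cells. It was above control in Jurkat cells, more so with hairpin 1012, and below control in K562 cells, with a difference of -1.38 ± 0.49 (SE).

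SLC25A37, or mitoferrin-1, carries iron into mitochondria for heme synthesis and is prominent in erythroid cells. Its signals were 697, 1062 and 1306 in Jurkat and 3041, 2138 and 2205 in K562 cells. With this probe set both silenced Jurkat arrays lay above and both silenced K562 arrays below their control. The K562 excess was 4.36-fold in the controls and 2.01-fold and 1.69-fold with the hairpins. In the difference between the lines 4 of its 5 other eligible probe sets were negative with both hairpins, 1 of them only at -0.10 and -0.06. The remaining 1 gave -0.10 and 0.17. Against control in Jurkat cells 1 of the 5 read 0.56 and 0.38. The rest lay there between -0.13 and 0.25 with hairpin 381 and between -0.07 and 0.04 with 1012. The rise above control in Jurkat cells therefore rests mainly on the brightest probe set. The difference of the brightest probe set was -1.22 ± 0.35 (SE).

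TUBA4A, an alpha-tubulin with close paralogs, read 338, 830.0 and 613 in Jurkat and 4040.2, 3345 and 3127 in K562 cells. HGH1, which helps fold translation elongation factor 2, read 341, 524 and 450.0 in Jurkat and 1124, 516 and 649 in K562 cells. The TUBA4A difference lay mostly in Jurkat cells, where both silenced arrays stood well above control, and the HGH1 difference in both lines with this probe set. The second eligible HGH1 probe set was below control in both lines, at -0.12 and -0.24 in Jurkat cells, with differences between the lines of -0.51 and -0.38, so the rise above control in Jurkat cells rests on the brightest one. UACA, a regulator of apoptosis, read 439.8, 758 and 848 in Jurkat and 866, 647 and 755 in K562 cells, with the control below both silenced arrays in Jurkat and above both in K562 cells. CTSV, a lysosomal cysteine protease, read 597, 1172 and 815 in Jurkat and 139, 72.3 and 58.6 in K562 cells. Its Jurkat excess was 4.29-fold in the controls and 16.2-fold and 13.9-fold with hairpins 381 and 1012, although the silenced K562 signals were under 100. PITPNM2, a phosphatidylinositol transfer protein, gave -1.74 and -1.12, and KLK3, the prostate-specific antigen gene, -1.18 and -1.94. HGH1, KLK3 and UACA were read by probe sets, marked by x in their names, of the kind that can bind other transcripts, and what share of their signal came from these genes was not tested.

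The noncoding transcripts HHIP-AS1 and SLC12A2-DT were named too. HHIP-AS1 read 6060.0, 5972 and 4515 in Jurkat and 108, 8.30 and 13.6 in K562 cells. It was bright in all Jurkat cells and just above the eligibility level in control K562 cells, where both silenced signals were under the pseudocount of 17. Its difference of -1.95 ± 0.43 (SE) therefore depends on that pseudocount and was -0.94 with one 4 times larger. SLC12A2-DT gave -1.41 and -1.02, but its other 2 eligible probe sets -0.22 and 0.30, and -0.14 and 0.20. Over the 12 named genes of this direction the folds lay between 2.07 and 3.86 and the unadjusted p values between 0.000855 and 0.0191.

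**Figure D3:**
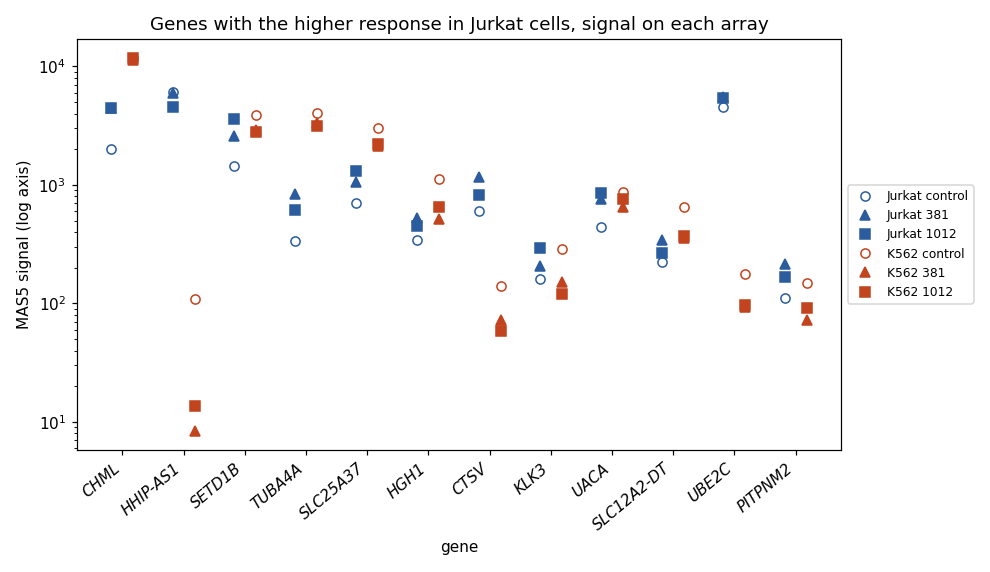
Deposited signal on each array (log axis) of the 12 Jurkat-higher genes with the smallest interaction p, with Jurkat arrays in blue and K562 arrays in red, open circles for controls, triangles for hairpin 381 and squares for hairpin 1012. In 10 of the 12 genes both silenced arrays lie above control in Jurkat and below it in K562 cells, and the silenced K562 arrays of HHIP-AS1 read 8.30 and 13.6.

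**Figure D4:**
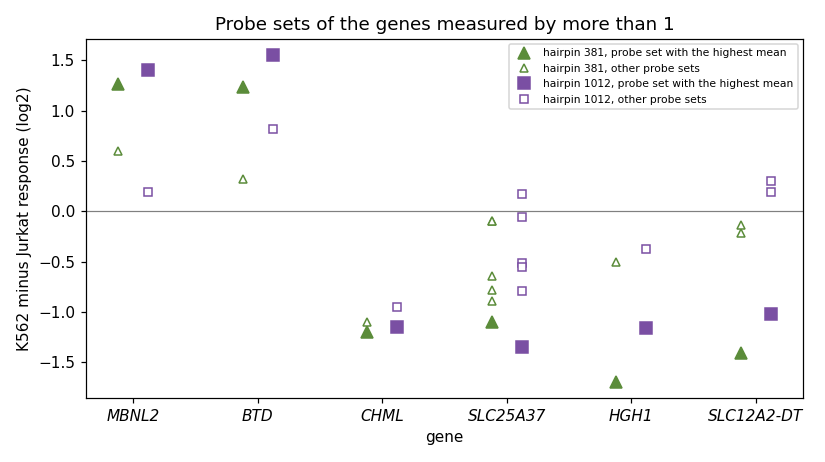
Difference between the lines (K562 minus Jurkat, log2) of each eligible probe set of the named genes other than ZFX that have more than 1, for hairpin 381 (green triangles) and hairpin 1012 (purple squares), with the brightest probe set filled and the others open. Both other probe sets of the K562-higher genes and 6 of 9 of the Jurkat-higher genes have the sign of the brightest with both hairpins, and the brightest, on which the size was judged, lies farthest from 0 in each gene shown.

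The other 9 Jurkat-higher genes had mean differences between -2.08 and -1.05. ANKLE1, a DNA-processing endonuclease of blood cells, read 156, 185 and 114 in Jurkat and 141, 37.6 and 5.63 in K562 cells, and ZFHX2, a zinc finger homeobox gene, read 116, 101 and 104 in Jurkat and 118, 33.0 and 8.80 in K562 cells. Both were near the eligibility level in the controls and dim on the silenced K562 arrays, under the pseudocount with hairpin 1012. CCDC92 read 1040.1, 616 and 691 in Jurkat and 218, 50.8 and 59.3 in K562 cells, below control on all 4 silenced arrays and further below in K562 cells. OAS3, an interferon-induced antiviral enzyme, gave -1.22 and -1.21, but in Jurkat cells it was above control mainly with hairpin 381, at 0.93 and 0.04. Its K562 signals were 100.07, 78.2 and 35.2, so its control barely passed the eligibility level. The unadjusted limma interaction p of OAS3 was 0.121. The adhesion protease ADAM15 gave -1.31 and -1.47, the LKB1-binding gene STK11IP -1.19 and -1.08, the 14-3-3 sigma gene SFN -1.06 and -1.04 and IGKV1OR2-118, whose probe set can bind other transcripts too, -1.31 and -1.32. Of all 21 genes 9 had a signal under 100 on at least 1 array and 3 a signal under the pseudocount.

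Upstream sequence was searched for AGGCCT, the core letters of the motif reported for ZFX, which is its own reverse complement. In the RefSeq promoter table (GRCh38.p14) the 250 bases before the start site hold it in 2523 of 27305 promoters (9.24%) and in 688 of the 7346 eligible genes that were matched (9.37%). Of the 24 K562-higher genes 18 were matched and 1 held it, AP1B1, and of the 21 Jurkat-higher genes 16 were matched and 1 held it, UACA. The match starts 36 bases before the start in AP1B1 and 6 bases before it in UACA. The sequences of these genes and that of CHML, the gene of smallest p, which holds no match, are shown on the strand of the gene with the match in capitals; the CHML bases are also those before the start of OPN3. AP1B1 lies at chr22:29388571-29388820, UACA at chr15:70763559-70763808 and CHML at chr1:241640370-241640619, all on the minus strand.
AP1B1: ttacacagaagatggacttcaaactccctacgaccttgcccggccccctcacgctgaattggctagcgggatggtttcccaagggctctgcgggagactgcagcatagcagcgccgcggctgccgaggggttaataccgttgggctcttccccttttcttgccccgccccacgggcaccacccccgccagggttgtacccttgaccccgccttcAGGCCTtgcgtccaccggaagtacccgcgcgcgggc
UACA: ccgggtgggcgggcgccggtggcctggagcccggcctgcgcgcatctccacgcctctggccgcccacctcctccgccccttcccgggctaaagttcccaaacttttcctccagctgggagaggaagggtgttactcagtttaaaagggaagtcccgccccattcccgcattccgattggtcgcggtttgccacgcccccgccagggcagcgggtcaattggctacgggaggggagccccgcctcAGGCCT
CHML: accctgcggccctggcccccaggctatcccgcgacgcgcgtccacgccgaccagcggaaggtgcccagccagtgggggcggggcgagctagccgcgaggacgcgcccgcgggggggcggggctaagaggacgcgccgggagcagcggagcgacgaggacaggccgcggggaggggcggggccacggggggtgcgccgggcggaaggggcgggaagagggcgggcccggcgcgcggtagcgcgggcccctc
A match of letters does not show binding, and ZFX binding was not measured here.

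Gene lists chosen for leukemia cells and for this treatment were then described by their medians, beside the median of -0.0051 and the 49.4% above 0 over all eligible genes. The 28 lists held 637 distinct eligible genes, and their medians lay between -0.27 and 0.32. For 13 lists the median was under 0.1 in size, and for 7 it was 0.2 or more. Past the 2-fold size were 1 list member in the K562-higher direction, STAT5B, beside 0.274% of all eligible genes, and 5 in the other, beside 0.24%: CHML, EGR1, OAS3, SLC25A37 and UBE2C. No member of any list had an interaction that passed after adjustment.

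**Figure D5:**
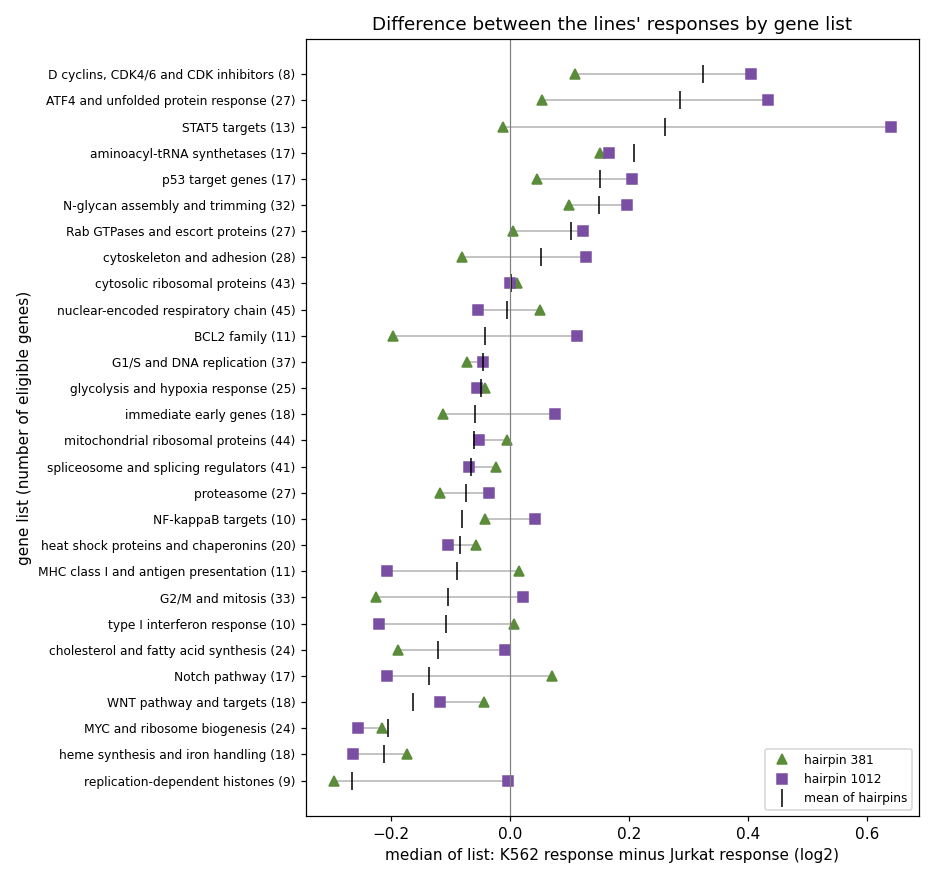
Median difference between the lines (K562 minus Jurkat, log2) over the eligible genes of each of 28 lists, with the number of genes in brackets, for hairpin 381 (green triangles), hairpin 1012 (purple squares) and the mean of the hairpins (black bars). The list of MYC and ribosome biogenesis and that of heme and iron genes lie below 0 and aminoacyl-tRNA synthetases above 0 with both hairpins, while STAT5 targets lie near 0 with hairpin 381 and at 0.64 with hairpin 1012.

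The list of MYC and ribosome biogenesis, a process MYC drives in growing cells, leaned to the Jurkat side with either hairpin. It holds MYC itself and the mitochondrial chaperonins HSPD1 and HSPE1 beside the genes that build ribosomes. Of 24 eligible genes 21 had a negative difference between the lines, with a median of -0.22 with hairpin 381 and -0.26 with hairpin 1012. Against control, 21 were higher in Jurkat and 9 in K562 cells, where over all eligible genes 45.9% were higher in Jurkat and 46.8% in K562 cells. On the same silenced Jurkat arrays the 28S ribosomal RNA control read 0.87 and 0.83 above control, and its part in the result was not tested. NOP58, a core protein of box C/D small nucleolar RNA particles, read 9414, 11008 and 10349 in Jurkat and 11515, 9231 and 8078 in K562 cells. It stood above control on both Jurkat and below it on both K562 arrays, with a difference of -0.60 ± 0.22 (SE) and an unadjusted p of 0.0260. POLR1A, the largest subunit of RNA polymerase I, gave -0.99 and -0.79, the ribosome assembly factor RRS1 -0.53 and -0.74 and HSPE1 -0.32 and -0.60. The median kept its sign under each alternative run, between -0.26 and -0.16.

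Ribosomal protein genes themselves were level between the lines. Cytosolic ribosomal proteins had a median of 0.00 over 43 eligible genes, with 22 above 0, and mitochondrial ribosomal proteins -0.06 over 44. Nuclear-encoded respiratory chain genes lay at -0.01 over 45, or 0.03 after cyclic loess or quantile normalization, and spliceosome genes at -0.07 over 41. Protein quality control leaned slightly to the Jurkat side: 21 of 27 proteasome genes and 15 of 20 heat shock and chaperonin genes were negative, with medians of -0.07 and -0.08.

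ATF4 target and unfolded protein response genes, which cells switch on when amino acids are short or proteins misfold, leaned to the K562 side, but mainly with hairpin 1012. Of 27 eligible genes 19 had a positive difference, and the median was 0.05 with hairpin 381 and 0.43 with hairpin 1012. Against control, 24 of the 27 were higher in K562 and 9 in Jurkat cells. ATF4, the transcription factor of the list, read 23819, 21548 and 25786 in Jurkat and 11788, 14991 and 18924 in K562 cells. The silenced K562 arrays both lay above control, and the Jurkat arrays lay on both sides of theirs, with a difference of 0.53 ± 0.24 (SE). The amino acid transporter chain SLC3A2 read 717, 479 and 630.0 in Jurkat and 679.8, 828 and 1214 in K562 cells. Both Jurkat values were below and both K562 values above control, more so with hairpin 1012. SESN2, a stress-induced inhibitor of mTORC1, had unlike values with the hairpins, at 0.50 and 1.96 for 381 and 1012, and ATF3 gave 0.52 and 1.27. Spiked-in poly-A control transcripts also read highest against control on the K562 array with hairpin 1012, by a median of 0.72, against 0.35 with hairpin 381 in K562 and 0.08 and 0.45 in Jurkat cells. Their part in the result was not tested.

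Aminoacyl-tRNA synthetases, several of which are ATF4 targets, were positive in 13 of 17 eligible genes. Their median was 0.15 with hairpin 381 and 0.17 with hairpin 1012, and it stayed positive under each alternative run. Against control 14 were higher in K562 and 6 in Jurkat cells. AARS1, the alanyl-tRNA synthetase, read 2239, 1845 and 2824 in Jurkat and 3111, 4170.2 and 5585 in K562 cells. Both K562 values stood above control, and the Jurkat values lay on either side of theirs. For CARS1, GARS1 and YARS1 the differences were 0.28 ± 0.25, 0.26 ± 0.26 and 0.31 ± 0.30 (SE).

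STAT5 target genes, the output of BCR-ABL1 signalling in K562 cells, depended on the hairpin. The list holds STAT5B itself beside the targets. Of 13 eligible genes 9 were positive, with a median of -0.01 with hairpin 381 and 0.64 with hairpin 1012. An unadjusted limma interaction p below 0.05 was found for 3, CCND2, STAT5B and CISH, as for 132 of the 8748 eligible genes tested (1.51%). CISH, a feedback inhibitor of cytokine receptors, read 211, 179 and 161 in Jurkat and 768, 1129 and 1793 in K562 cells. Its silenced K562 arrays were both above control and its silenced Jurkat arrays both below, with a difference of 1.16 ± 0.48 (SE) and an unadjusted p of 0.0390. SOCS1, another feedback inhibitor, gave 0.89 and 0.79, but from different lines. Against control it read 0.00 in K562 and -0.89 in Jurkat cells with hairpin 381, and 0.87 and 0.08 with 1012. Its Jurkat signals were dim, at 104, 48.1 and 111, and its unadjusted limma interaction p was 0.271. Cyclin D2 (CCND2), which lies in both this list and that of the D cyclins, read 1328, 649.7 and 546 in Jurkat and 4859, 4197 and 5310.2 in K562 cells. The silenced Jurkat arrays were both under the control, and the K562 arrays lay on either side of theirs, so the difference of 1.09 ± 0.36 (SE) came mainly from Jurkat cells.

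In the list of D cyclins, their kinases and CDK inhibitors 6 of 8 eligible genes were positive, with a median of 0.11 with hairpin 381 and 0.41 with hairpin 1012. The kinase CDK4 gave 0.43 and 0.46, the inhibitor CDKN1A 0.73 and 1.11 and the kinase CDK6 -0.29 and -0.16. CDKN1A, also a p53 target, read 174, 109.5 and 157 in Jurkat and 183, 202 and 376 in K562 cells, with its high value on the K562 array with hairpin 1012 alone. Genes of later cycle phases leaned the other way without reaching far. Of 33 G2/M genes 22 were negative, with a median of -0.23 with hairpin 381 and 0.02 with hairpin 1012, and of 37 G1/S genes 24, with a mean-of-hairpins median of -0.05. The checkpoint gene MAD2L1 read 10474, 13906 and 15596 in Jurkat and 12282, 12512 and 12368 in K562 cells, above control with both hairpins in Jurkat and level in K562 cells. ORC6, a subunit of the origin recognition complex, read 4646, 7387 and 7009.8 in Jurkat and 5642, 5735 and 4592 in K562 cells, a difference of -0.77 ± 0.28 (SE) with an unadjusted p of 0.0229.

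Heme synthesis and iron handling genes had a median of -0.17 with hairpin 381 and -0.26 with hairpin 1012, with 12 of 18 eligible genes negative. The transferrin receptor TFRC read 21667, 31842 and 24989.8 in Jurkat and 32913, 32454 and 26868 in K562 cells, above control on both silenced Jurkat arrays and at or below it in K562 cells. ABCB10, a mitochondrial transporter needed for heme synthesis, read 16389.9, 17448 and 12855 in Jurkat and 7747, 4799 and 4788 in K562 cells. Its silenced K562 arrays were both below control, and its Jurkat arrays lay on either side. The summed erythroid marker signal in K562 cells was 100458 in the control and 86567 and 74056 on the silenced arrays. Most of the step with hairpin 381 came from the embryonic globin HBZ, and without it the sums were 76310, 75482 and 64794. Of the 14 markers 10 were below control on both silenced K562 arrays, while the adult globin HBB read 841, 2637 and 1054. The part of this marker level in the result was not tested, and fewer cells of a type cannot be told apart from less RNA per cell in bulk samples. Only 9 of 55 replication-dependent histone genes were eligible, 4 of them positive, and their median of -0.27 turned to 0.08 with a control signal of at least 200.

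Immediate early genes lay on both sides of 0. EGR1 and JUN, a subunit of AP-1, were on the Jurkat side, at -1.20 and -1.55 for EGR1 and -0.97 and -0.99 for JUN, and IER2 and ATF3 on the K562 side, at 0.54 and 0.44 for IER2. JUN signals were 395, 766 and 994 in Jurkat and 1768, 1720.2 and 2188 in K562 cells. Both silenced Jurkat arrays lay well above control, and the K562 arrays lay on either side of theirs. The interferon list had 5 of 10 eligible genes above 0, with a median of 0.01 with hairpin 381 and -0.22 with hairpin 1012. Its members with the smallest p ran both ways. BST2, a tether of budding virions, read 369, 561 and 594 in Jurkat and 2645, 2668 and 2191 in K562 cells, with a difference of -0.75 ± 0.37 (SE), and IRF9, a transcription factor of the interferon response, gave 0.25 and 0.79. N-glycan assembly genes were positive in 21 of 32 and Rab and escort genes in 20 of 27, with medians of 0.15 and 0.10 and CHML at the opposite sign to its list. MAN1A1, a Golgi mannosidase, read 1443, 784 and 713 in Jurkat and 6709, 5518 and 5707 in K562 cells, below control on all 4 silenced arrays and further below in Jurkat cells.

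In the cytoskeleton and adhesion list 15 of 28 eligible genes were positive, with a median of 0.05. Vimentin (VIM), an intermediate filament protein, read 13528, 15004 and 13766 in Jurkat and 8667, 16159 and 12981 in K562 cells. The silenced K562 arrays both stood above control, and the Jurkat arrays lay near or slightly above theirs, with a difference of 0.65 ± 0.23 (SE) and an unadjusted p of 0.0223. Notch, WNT, NF-kappaB, BCL2 family, p53 target, glycolysis, cholesterol and MHC class I lists had medians between -0.16 and 0.15. In the Notch list 12 of 17 eligible genes were negative, with a median of -0.14, and the receptor NOTCH1 gave -0.13 and -0.93. IGF1R ran against its list. The gene, which Notch activates in T cell leukemia, read 2441, 1788 and 2149.8 in Jurkat and 198, 349 and 278 in K562 cells. It was below control on both Jurkat and above it on both K562 arrays, with a difference of 0.93 ± 0.40 (SE). HLA-F, a nonclassical class I gene, read 387, 542 and 591 in Jurkat and 104, 72.5 and 86.0 in K562 cells, the opposite arrangement, although its silenced K562 signals were under 100.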

How the data were processed

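The deposited values, made by the authors, are linear intensities, 1 MAS5 signal per probe set and array, as the submitters' processing notes record. For MAS5 the version was not given in the sources used here. Array controls, 62 in all, were left out, and 41097 of 54675 probe sets had 1 symbol in the platform annotation, 1801 several and 11777 none. Of these, 41043 were looked up by Entrez identifier and 0 changed.

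From these intensities log2(signal + 17) was computed with no further normalization, so a fold understates the change of dim genes. All 6 arrays were fitted as 4 groups with limma 3.58.1 in R 4.3.3, with an intensity trend, on 27306 probe sets whose mean exceeded the median over all probe sets (a signal of 54.4). Of the eligible probe sets 3 were not tested. The fit had 2 residual and, in the median, 6.34 prior degrees of freedom, and took the control arrays to vary as the silenced arrays did. P-values are two-sided, adjusted by Benjamini-Hochberg, and measure the spread between hairpins, not between cultures. On simulated data the fit recovered, on average, only a minority of the changes put in, so an absence of calls does not bound the differences.

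The comparison, the lists and the alternatives were chosen with earlier results of these data known. Named were ZFX, the 12 genes of smallest p in each direction among those past a 2-fold size with both hairpins, any gene at least 1.5-fold from control in opposite directions, and up to 4 members of a list described. Other genes past that size were chosen after their values were seen. The same hairpin in both lines was taken as a replicate number: deviations of same-hairpin arrays correlated at 0.18 over tested probe sets, and with 2 pairs this does not establish pairing. The alternatives covered pseudocount, normalization, eligibility, filter, trend, a replicate block and leaving out each silenced array.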

Additional observations from a re-analysis of the deposited data

Results flagged for a closer look

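For 21 of the 24 named genes other than ZFX both silenced arrays of one line lay on the opposite side of control from both silenced arrays of the other, as did 1194 of all 8749 eligible genes (13.6%). These genes were chosen for a large difference between the lines, which favours opposite sides, so the count is no support for a difference. On the log2 scale, as K562 minus Jurkat, the mean differences of those above control in K562 cells were those of ARRDC1 (1.65), NUDT17 (1.39), TAOK2 (1.53), PNRC1 (1.53), TTC7B (1.21), APOBEC3G (1.26), AP1B1 (1.53), BAMBI (1.19), TST (1.21), MBNL2 (1.33) and BTD (1.39). The genes above control in Jurkat and below it in K562 cells were SETD1B (-1.51), TUBA4A (-1.36), SLC25A37 (-1.22), HGH1 (-1.43), CTSV (-1.62), KLK3 (-1.56), UACA (-1.14), SLC12A2-DT (-1.22), UBE2C (-1.05) and PITPNM2 (-1.43). The limma interaction test of these differences gave an adjusted p of 0.9997 for each. The silenced arrays of a line share 1 control array.

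Control probe sets outside the comparison also differed from the control arrays. The poly-A transcripts spiked into the samples read above control by a median log2 value of 0.075 in Jurkat cells with hairpin 381, 0.45 in Jurkat cells with 1012, 0.35 in K562 cells with 381 and 0.72 in K562 cells with 1012. The 28S ribosomal RNA control probe set was above control by 0.87 and 0.83 on the Jurkat arrays with hairpins 381 and 1012 and by 0.074 on the K562 array with 1012. Their part in the differences between the lines was not tested.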

How the results depend on the processing

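The limma interaction gave 0 calls under every alternative run, and the smallest adjusted p came without the K562 array with hairpin 1012, at 0.232. With the hairpin as a replicate block it gave 0 calls too, with a smallest adjusted p of 0.602. The counts past the 2-fold size, 62 K562-higher and 60 Jurkat-higher probe sets, were 28 and 22 with a pseudocount 4 times larger, 150 and 172 at a control signal of 50, 20 and 25 at 200, and 24 and 21 with 1 probe set a gene. They were 465 and 420 at a size of 1.5-fold and 4 and 6 at 1.5 on the log2 scale. With 1 hairpin in place of both, 281 to 325 K562-higher and 215 to 422 Jurkat-higher probe sets passed. The single gene in opposite directions became 0 with the larger pseudocount and at a control signal of 200, 2 with the smaller pseudocount, cyclic loess, quantile normalization or eligibility on all 3 arrays of a line, 5 at 50, and 14 to 17 with 1 hairpin, an alternative chosen after seeing the data. ZFX, read by its brightest probe set, kept its side of control when an array was left out. It lay between -1.92 and -0.54 in Jurkat and between -1.54 and -1.27 in K562 cells. The difference between the lines for ZFX lay between -0.86 and 0.52 when an array was left out, and turned to 0.52 without the Jurkat array with hairpin 381. That turn follows from the unlike silenced Jurkat values of the brightest probe set, -0.54 with hairpin 381 and -1.92 with 1012. The second eligible ZFX probe set gave -1.44 and -1.64 in Jurkat cells. Why the values of the brightest one differed was not tested. Of 315 alternative values of named genes 314 kept their sign, and the 1 that did not was that of ZFX. The other named genes were chosen for a large difference with both hairpins, so a kept sign was largely fixed by that choice. The alternatives of filter, trend and replicate block change the test and leave the value itself as it was. Of 290 alternative list medians 258 moved by less than the spread between hairpins and 19 had the other sign. These include the medians with each hairpin alone, which also set that spread, so a small move of those was largely fixed in advance. They also include the pair of ZFX and its paralog, which is not among the 28 lists. Scaling moved the median of all genes by little, to between -0.0116 and 0.00476. Background was not measured apart from signal here, so how far dim probe sets limit these counts was not tested.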
